A study of Mus musculus with 8 samples.

Results

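Collagens, laminins and other genes of the extracellular matrix were followed in ASZ001 cells, a mouse basal cell carcinoma line, after induction of the transcription factor c-Fos. The genes were all collagen chains and all laminin chains by symbol plus 20 named matrix genes, kept where at least 2 of the 8 libraries held 10 or more counts. Of the 24883 genes in the table, 75 had a matching symbol, 48 met this minimum, and 46 of the 48 also passed the low-count filter of the test. Lamc3 and Lox were the 2 members not tested. Col15a1, Lamc3, Lox and Col6a5 would have missed the minimum without 1 of the groups, and Col15a1, Col4a6 and Col6a5 would have missed the test's filter without 1 of them. The rule used the counts but no difference between groups. The libraries were made from RNA of 4 groups of 2 samples, and all cells had received doxycycline for 24 h. In 3 groups doxycycline switched on a c-FOS vector, and for 6 h afterwards the cells received 5 µM afatinib (an inhibitor of EGFR-family receptor kinases), 10 µM UO126 (an inhibitor of the kinase MEK) or the vehicle DMSO. The fourth group carried the empty vector with doxycycline, and its labels name no DMSO and no further 6 h. Between it and c-Fos cells with DMSO, c-Fos, vehicle, any added hours and the vector line cannot be told apart. The labels do not say whether the 2 samples of a group came from separate cultures, or whether each vector line was 1 clone or a pool, so p-values measure the spread between these samples only.

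Collagens are trimers of α chains. Fibrillar collagens such as types I, V and XI form the fibrils of the dermis and other connective tissue, fibril-associated collagens decorate them, and type IV forms the network of the basement membrane, the sheet on which epidermal cells rest. Laminins are trimers of an α, a β and a γ chain that polymerise in the same sheet and bind integrins. Basal keratinocytes hold on to it through a laminin that contains the chains Lama3 and Lamb3, through the hemidesmosome protein type XVII collagen (Col17a1) and through anchoring fibrils of type VII collagen (Col7a1). Fibronectin, tenascin C and thrombospondins are glycoproteins known for wounds and tumour stroma, and hyaluronan is a matrix sugar polymer made by Has enzymes. c-Fos pairs with Jun proteins as AP-1, which binds the DNA motif TGANTCA, and the receptor-to-MEK pathway is a known inducer of AP-1 genes.

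Library totals were 17901974 to 23126048 counts, and levels are given as CPM, counts scaled to library size with TMM factors. Fos measured 1107 and 1081 CPM with afatinib, 813 and 875 CPM with UO126, 1163 and 1120.5 CPM with DMSO, and 40.6 and 50.5 CPM with the empty vector. The c-Fos libraries were thus all above the empty-vector libraries (log2 fold change 4.65 ± 0.096, SE, with DMSO, adjusted p = 2.61e-12), and Fos was lower with UO126 than with DMSO (-0.44 ± 0.080, adjusted p = 0.00148), whose part in the UO126 values of the matrix genes was not tested. All 12 keratinocyte markers were tested, with Krt5 at 7046 to 8683 CPM; Gli1, a Hedgehog target of basal cell carcinoma, measured 7.51 to 14.4 CPM, and the target Hhip stayed at or under 0.0461 CPM. Of 13 fibroblast markers 5 were tested, and Lum, Thy1, Prrx1 and Tcf21 had 0 counts in every library. The fibroblast list summed to 29.0 to 29.3 CPM with afatinib, 29.8 to 30.7 CPM with UO126, 33.2 to 34.9 CPM with DMSO and 10.7 to 11.9 CPM with the empty vector. S100a4, which other cells also express, averaged 28.6 CPM with DMSO and 2.16 CPM with the empty vector. It rose by more than the whole list, so the other fibroblast markers together summed to less with DMSO than with the empty vector. Endothelial markers summed to 153 to 168 CPM with DMSO and 101 to 110 CPM with the empty vector, with Kdr and Cldn5 at 0 in all libraries. That list did not move as a whole. Of its 8 markers 3 were tested, and with c-Fos 1 was higher and 1 lower at an adjusted p under 0.05. Their median log2 fold change was -0.24. Over all genes 21.5% were higher and 20.7% lower.

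The members took 1.78% and 1.82% of all counts with afatinib, 1.95% and 2.06% with UO126, 2.07% and 1.91% with DMSO, and 2.34% and 2.28% with the empty vector. The c-Fos libraries thus lay below the empty-vector libraries, whose matrix share was the largest of the 4 groups. This share is weighted by the members with most counts. Col17a1 averaged 4675 CPM with the empty vector, 2927 with DMSO, 2524 with UO126 and 2484 with afatinib. Thbs1 averaged 4025, 3080, 2693 and 1030 CPM in the same order. By number, 15 tested members were higher and 15 lower with c-Fos and DMSO, so the lower share does not describe the members as a set. Per kb of the deposited transcript length, the scale on which genes can be compared, Col17a1 was the most abundant member in c-Fos cells with DMSO (534 ± 30.8 CPM per kb, SD, n = 2). Thbs1, a secreted thrombospondin, was within the spread of it at 529 ± 42.1 CPM per kb, and Sparc, a collagen-binding matricellular protein, followed at 328 ± 2.25 CPM per kb. Lamb3, at 316 ± 7.16 CPM per kb, and fibronectin (Fn1), at 295 ± 34.7 CPM per kb, came next. In empty-vector cells Col17a1 stood at 853 ± 11.6 CPM per kb and Thbs1 at 691 ± 45.2 CPM per kb, above Sparc at 256 ± 1.73, Fn1 at 221 ± 13.2 and Lamb3 at 208 ± 0.233 CPM per kb. With afatinib Thbs1 dropped in this order, to 177 ± 9.95 CPM per kb, below Sparc at 337 ± 5.80, Lamb3 at 312 ± 9.94 and Fn1 at 310.3 ± 5.60 CPM per kb. The genes of hemidesmosome and epidermal basement membrane thus headed the list beside matricellular proteins, while type I collagen was scarce. The other 27 matching symbols held at most 8.5 counts in any library (Col6a2), with a median highest count of 2.5, and Col13a1 and Col9a1 had none. They included Col3a1 (at most 6.5 counts), which pairs with type I collagen in dermal fibrils, Nid1 (at most 1) and Nid2 (at most 7), which link laminin and type IV collagen, and the fibroblast proteoglycan Bgn (at most 2). With so few counts a difference could not be detected in these genes.

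**Figure D1:**
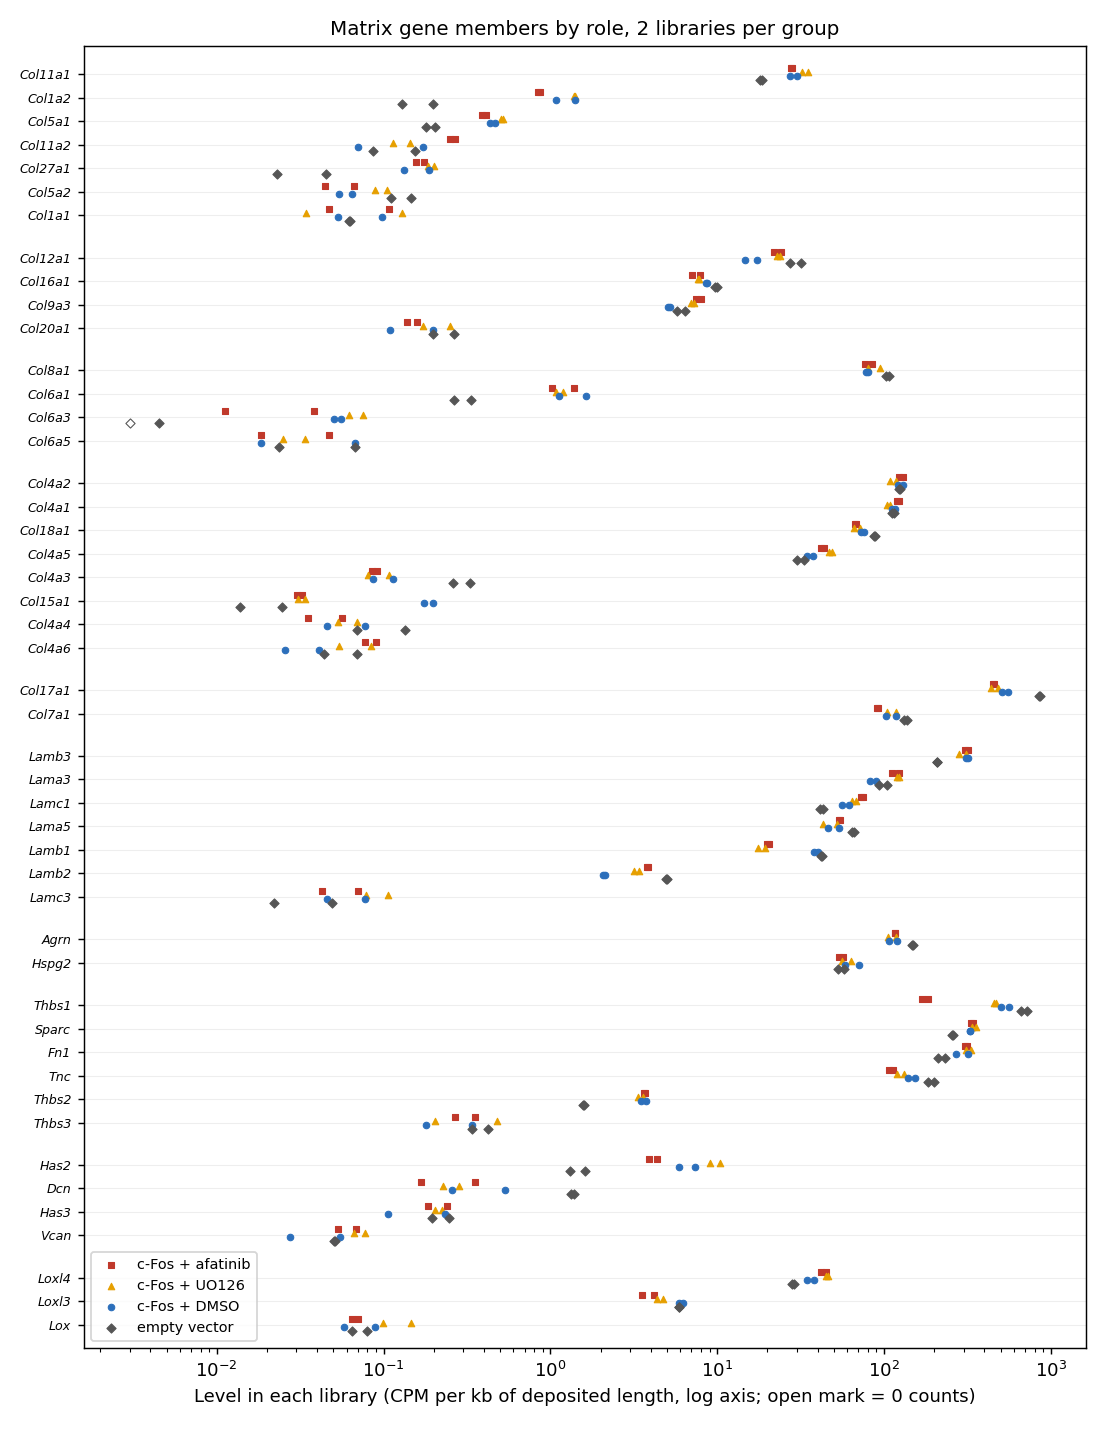
Level of the members in every library, as CPM per kb of deposited length on a log axis, grouped by role, with 2 marks per group. An open mark is a library with 0 counts, drawn at the left edge. Col17a1, Thbs1, Sparc, Lamb3 and Fn1 lie at the right, and Col6a3 and Col15a1 at the left.

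With c-Fos and DMSO, 15 of the 46 tested members were higher and 15 lower than with the empty vector. Over all 12879 genes tested, 21.5% were higher and 20.7% lower, with edgeR's quasi-likelihood test and a Benjamini-Hochberg adjusted p under 0.05. That is 32.6% of the members in each direction, above the share of all genes in both. Col15a1, Col4a6 and Col6a5 would not have been tested without 1 of the groups; leaving them out, 14 and 15 of 43 members were called, Col15a1 being the call that drops out. The members' median log2 fold change was -0.15, against -0.01 over all genes. Fibrillar collagens counted 4 higher and 1 lower of 7 tested, laminins 2 higher and 4 lower of 7, and adhesive and matricellular proteins 3 higher and 2 lower of 6. Both anchoring and transmembrane collagens were lower, and basement membrane collagens split into 2 higher, Col15a1 among them, and 2 lower of 8. Changes with c-Fos are throughout those of the DMSO group relative to the empty vector, and ± beside a log2 fold change is its SE. In RNA from whole cultures, fewer cells of a kind and less RNA per cell cannot be told apart.

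With afatinib, 9 members were higher and 10 lower than with DMSO in c-Fos cells, where 21.2% of all genes were higher and 21.5% lower. With UO126, 9 were higher and 5 lower than with DMSO, where 13.9% of all genes were higher and 14.7% lower. Between the inhibitors, afatinib against UO126, 1 member was higher and 5 were lower, where 7.14% of all genes were higher and 7.14% lower. The members' median log2 fold changes were -0.00375, 0.103 and -0.0414 in these 3 comparisons, against -0.000280, 0.00206 and -0.00178 over all genes. The members called made 19.6% and 21.7% with afatinib, near the shares of all genes, and 19.6% and 10.9% with UO126, above and below them by a few genes. Col15a1 is 1 of the lower calls with each inhibitor; without it, Col4a6 and Col6a5 the counts were 9 higher and 9 lower of 43 with afatinib and 9 and 4 with UO126. Between the inhibitors the shares of members were 2.17% and 10.9%. Without DMSO replicate 2 the members called higher numbered 5 with afatinib and 5 with UO126. Members lower with UO126 numbered 3 without empty-vector replicate 2, DMSO replicate 1, either afatinib replicate or UO126 replicate 1. Members lower between the inhibitors numbered 2 without either afatinib replicate, and the member higher numbered 0 without either empty-vector or afatinib replicate, DMSO replicate 1 or UO126 replicate 1, 2 without DMSO replicate 2 and 3 without UO126 replicate 2. Where a call ends, or a difference passes the threshold, under another setting of the analysis or without a library, the adjusted p of that setting follows in parentheses. The comparisons share libraries: DMSO serves in the first as the c-Fos group and in the inhibitor comparisons as the control, so a member's opposite signs in them are not independent values.

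**Figure D2:**
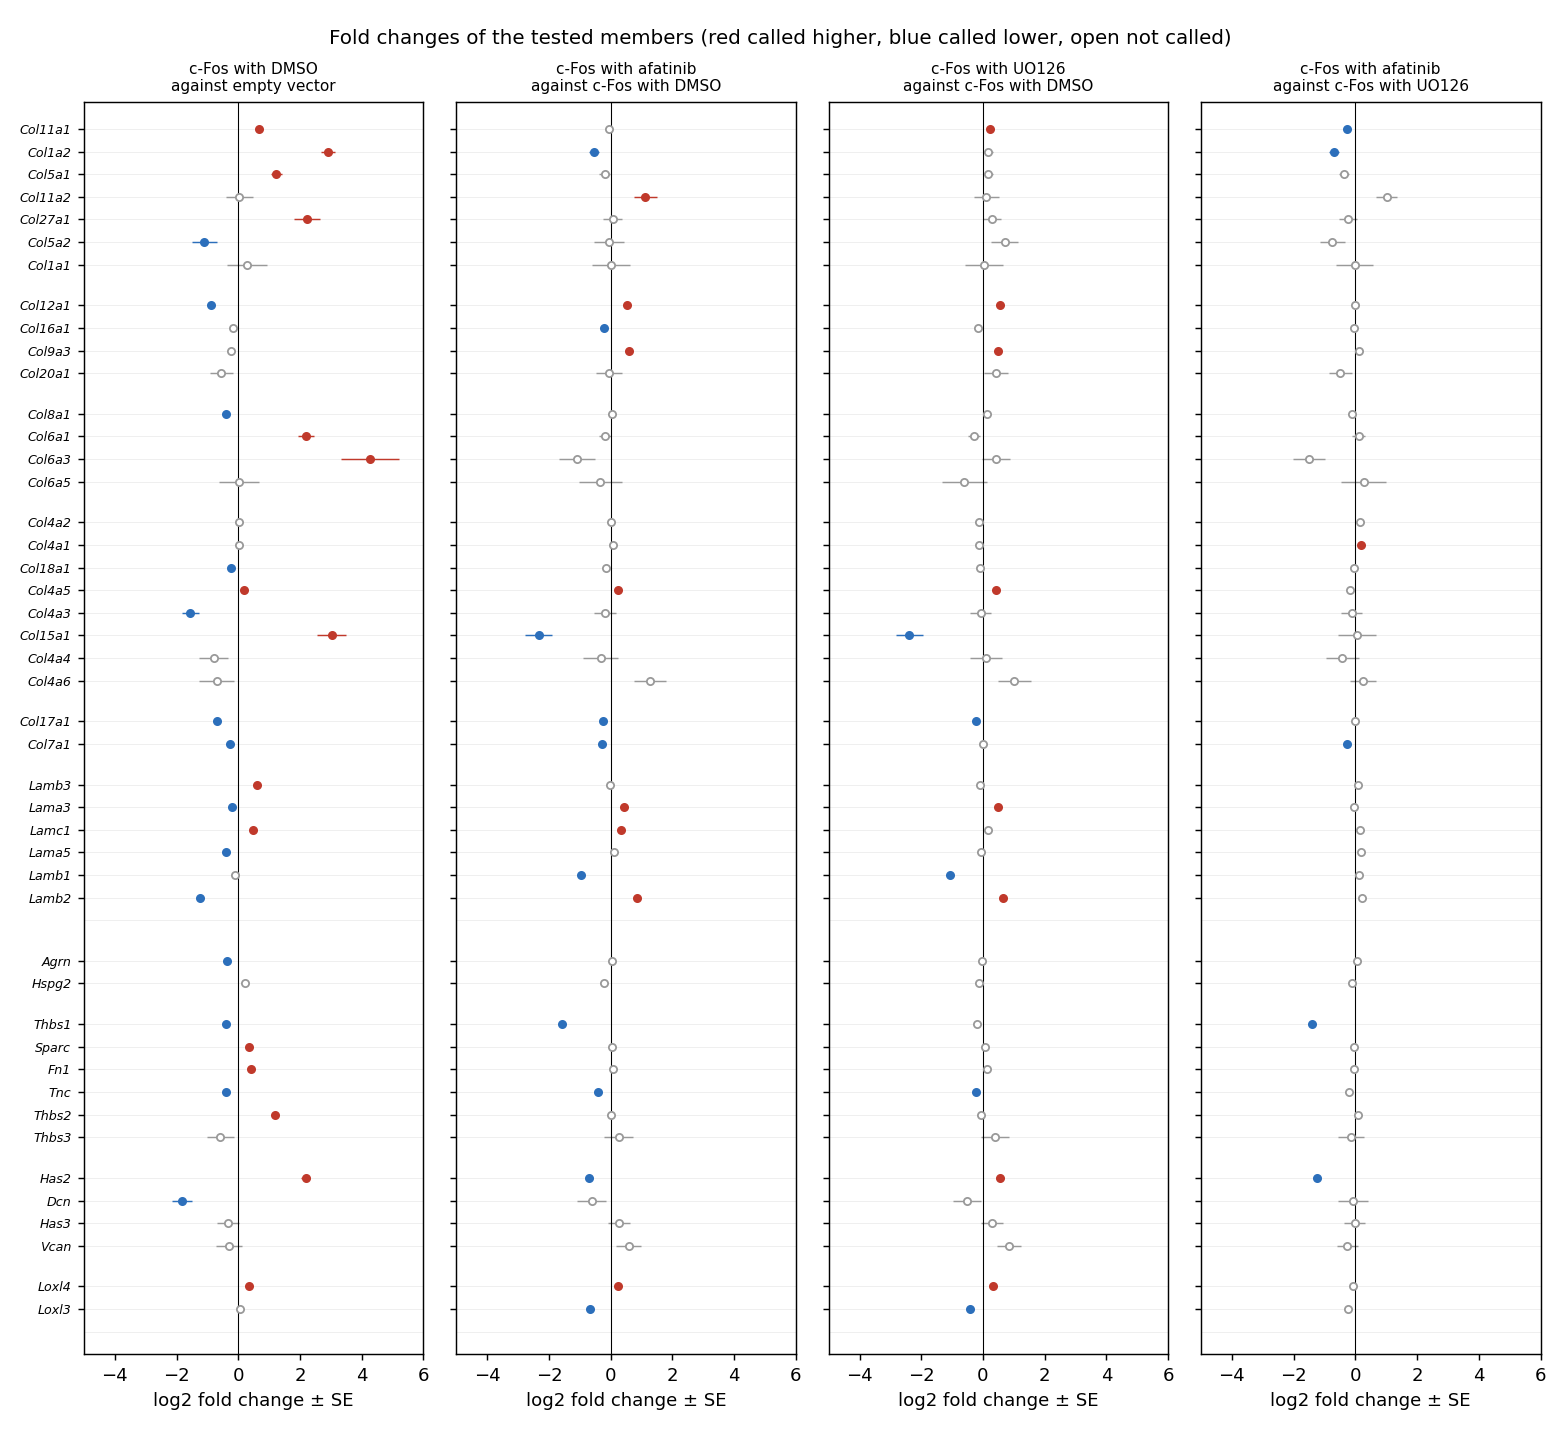
Log2 fold change with its SE for tested members, by role, in the 4 main comparisons, 1 panel each, with red points called higher, blue called lower and open points not called at an adjusted p of 0.05. With c-Fos the red points of Col1a2, Col6a1, Has2, Thbs2, Col5a1, Col27a1, Col6a3 and Col15a1 lie right of 1 on the log2 scale. Col6a3 lies farthest right, on a single read with the empty vector. With either inhibitor Lamb1 is among the lowest blue points, with Thbs1 for afatinib. Col15a1, also blue with either inhibitor, could be tested only through its level with DMSO.

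Among fibrillar collagens, the α2 chain of type I collagen, Col1a2, rose most with c-Fos. It measured 4.36 and 4.49 CPM with afatinib, 7.12 and 7.22 CPM with UO126, 5.61 and 7.22 CPM with DMSO and 0.671 and 1.02 CPM with the empty vector. The libraries of both groups lay apart, and the rise was 7.50-fold (log2 fold change 2.91 ± 0.22, adjusted p = 2.39e-07). It fell with afatinib against DMSO, by a log2 fold change of -0.53 ± 0.17 (adjusted p = 0.0206), and was lower with afatinib than with UO126, -0.69 ± 0.16 (adjusted p = 0.0114); with UO126 against DMSO it was 0.16 ± 0.15 (adjusted p = 0.464). For Col1a2 the afatinib call against DMSO ended without afatinib replicate 1 (0.101), afatinib replicate 2 (0.0903) or DMSO replicate 2 (0.275) and under a DESeq2 Wald test (0.102). The call between the inhibitors ended without afatinib replicate 1 (0.0819) or afatinib replicate 2 (0.0767) and under a DESeq2 Wald test (0.0588). Its partner chain Col1a1 had 13 and 6 counts with afatinib, 4.5 and 16.5 with UO126, 10.5 and 5.5 with DMSO and 8.5 and 7.5 with the empty vector, and was called in none of the 4 comparisons. Type I collagen is made mostly by fibroblasts, and of the 13 fibroblast markers 5 were tested, 1 higher and 2 lower with c-Fos. S100a4, known from fibroblasts and other motile cells, averaged 28.6 ± 1.05 CPM with DMSO and 2.16 ± 0.450 CPM with the empty vector (log2 3.74 ± 0.14, adjusted p = 1.87e-10). Ogn (-1.39 ± 0.36, adjusted p = 0.00746) and Fbln1 (-0.98 ± 0.22, adjusted p = 0.00257) were lower, and Pdgfra and Postn were not called. The summed list was 33.2 to 34.9 CPM with DMSO and 10.7 to 11.9 CPM with the empty vector. S100a4 alone carried that rise, as the only marker of the list called higher. Lum, Thy1, Prrx1 and Tcf21 had 0 counts. The part of these markers in the Col1a2 rise was not tested.

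Col11a1, an α chain of type XI collagen, was the most abundant tested fibrillar chain per kb in c-Fos cells. It measured 210.1 and 216 CPM with afatinib, 267 and 247 CPM with UO126, 231 and 208 CPM with DMSO and 141 and 137 CPM with the empty vector. All 6 c-Fos libraries were above both empty-vector libraries, with a 1.58-fold rise under DMSO (log2 0.66 ± 0.069, adjusted p = 5.01e-06). With UO126 it rose further against DMSO (log2 0.23 ± 0.068, adjusted p = 0.0235), and with afatinib it was below UO126 (-0.27 ± 0.068, adjusted p = 0.0171). For Col11a1 the UO126 call ended without UO126 replicate 1 (0.0581) or DMSO replicate 2 (0.214) and in a fit of the 4 libraries alone (0.0612). The call between the inhibitors ended without afatinib replicate 1 (0.135), afatinib replicate 2 (0.0901) or UO126 replicate 1 (0.0508) and in a fit of the 4 libraries alone (0.0555). The type V chain Col5a1 rose with c-Fos (log2 1.24 ± 0.19, adjusted p = 0.000172), with 71.5 and 63.5 counts with DMSO and 39 and 31 with the empty vector. Its partner Col5a2 had 6.5 and 7.5 counts with DMSO and 22 and 15 with the empty vector, and was called lower (log2 -1.11 ± 0.41, adjusted p = 0.0428). For Col5a2 that call ended without afatinib replicate 1 (0.0538), afatinib replicate 2 (0.0531), DMSO replicate 1 (0.234), DMSO replicate 2 (0.0945), empty vector replicate 1 (0.251) or empty vector replicate 2 (0.0629), under a DESeq2 Wald test (0.251), with every detected gene kept (0.0591) and with the replicate block (0.0548). Col27a1, a fibrillar collagen known from cartilage, rose to 18.5 and 25 counts with DMSO, against 4 and 7 with the empty vector (log2 2.22 ± 0.42, adjusted p = 0.000793). Col11a2, the second type XI chain, was called higher with afatinib at 35.5 and 35.5 counts, against 20.5 and 8 with DMSO (log2 1.12 ± 0.37, adjusted p = 0.0242), on few reads: its log2 fold change was 1.89 without DMSO replicate 1, and the call ended without afatinib replicate 1 (0.0844), afatinib replicate 2 (0.07) or DMSO replicate 2 (0.227) and under a DESeq2 Wald test (0.102).

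Of the fibril-associated collagens, Col12a1, which coats type I fibrils, fell with c-Fos and was higher with either inhibitor. It measured 255 and 282 CPM with afatinib, 266 and 279 CPM with UO126, 203 and 172 CPM with DMSO and 373 and 317 CPM with the empty vector. DMSO libraries were the lowest of the 4 groups and empty-vector libraries the highest, with no overlap. The log2 fold change was -0.88 ± 0.095 (adjusted p = 2.24e-05) with c-Fos, 0.52 ± 0.095 (adjusted p = 0.00111) with afatinib and 0.54 ± 0.095 (adjusted p = 0.00157) with UO126 against DMSO. Col9a3, a chain of the cartilage collagen type IX, measured 21.1 and 22.6 CPM with afatinib, 19.7 and 20.4 CPM with UO126, 14.2 and 14.6 CPM with DMSO and 18.0 and 16.2 CPM with the empty vector. It was higher with either inhibitor than with DMSO, by log2 0.60 ± 0.096 (adjusted p = 0.000233) with afatinib and 0.47 ± 0.096 (adjusted p = 0.00257) with UO126, and was not called with c-Fos (-0.24 ± 0.098, adjusted p = 0.0602). For Col9a3 the c-Fos difference passed the threshold without UO126 replicate 1 (0.0466), with no scaling factor (0.029), in a fit of the 4 libraries alone (0.0424) and with the stricter low-count filter (0.0468). Col16a1 was called lower with afatinib (log2 -0.20 ± 0.076, adjusted p = 0.0476), which ended without afatinib replicate 2 (0.449), UO126 replicate 1 (0.0532), DMSO replicate 1 (0.159), DMSO replicate 2 (0.194), empty vector replicate 1 (0.0759) or empty vector replicate 2 (0.108), under a DESeq2 Wald test (0.145), with DESeq2 size factors (0.0513), with no scaling factor (0.0914), with every detected gene kept (0.0876) and with the replicate block (0.0675). Its c-Fos difference of log2 -0.19 ± 0.075 (adjusted p = 0.0622) passed the threshold without UO126 replicate 1 (0.0426), with no scaling factor (0.0218), in a fit of the 4 libraries alone (0.0268) and with the stricter low-count filter (0.0437). Col20a1 was called in none of the 4 comparisons.

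The beaded filaments of type VI collagen are built from Col6a1 and Col6a2 with another chain such as Col6a3. Col6a1 measured 4.04 and 5.48 CPM with afatinib, 4.24 and 4.66 CPM with UO126, 4.46 and 6.48 CPM with DMSO and 1.32 and 1.04 CPM with the empty vector. All 6 c-Fos libraries lay above the empty-vector libraries, a 4.57-fold rise with DMSO (log2 2.19 ± 0.25, adjusted p = 1.43e-05), and it was not called with either inhibitor against DMSO (log2 -0.19 ± 0.20, adjusted p = 0.476 with afatinib, -0.29 ± 0.20, adjusted p = 0.301 with UO126). Col6a3 had 2.5 and 9 counts with afatinib, 15 and 17.5 with UO126, 10 and 10.5 with DMSO and 0 and 1 with the empty vector. It was called higher with c-Fos (log2 4.28 ± 0.94, adjusted p = 0.00245) on a single read in the empty-vector group; scaled to depth, the count ratio was 24.3 with a 95% counting interval of 3.89 to 1007. Without empty-vector replicate 1 or 2 its log2 fold change was 3.38 or 6.54. For Col6a3 a fall with afatinib against DMSO passed the threshold without afatinib replicate 2 (0.0452), and one against UO126 with every detected gene kept (0.0465). Col6a2, the obligate partner in most type VI trimers, stayed at or under 8.5 counts, and so was not tested.

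The promoter of Col6a1 is shown because it alone, of the 32 members with a scanned RefSeq promoter window, held the AP-1 motif TGANTCA. The motif is its own reverse complement. The windows run from 250 bases before to 50 bases after the annotated start in GRCm38.p6, whereas the deposited counts came from mm9. The other 16 members had no scanned window, because none was listed or because member windows of a chromosome were left out. The motif is in 7.81% of all 32851 such windows, and in a window of 8.97% of 27025 genes. The Col6a1 window lies on the minus strand at chr10:76725995-76726294; capitals mark the motif, whose first base is 90 bases before the start.

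Col6a1: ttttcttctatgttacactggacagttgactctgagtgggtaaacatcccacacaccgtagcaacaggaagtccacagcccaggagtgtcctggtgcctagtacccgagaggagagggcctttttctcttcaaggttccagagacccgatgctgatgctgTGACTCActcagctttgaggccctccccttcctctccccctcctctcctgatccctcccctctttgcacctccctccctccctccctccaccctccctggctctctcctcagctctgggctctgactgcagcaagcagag

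A match is a string of letters and not a measured binding site. Col8a1, a short-chain network collagen known from vessel walls, measured 394 and 435 CPM with afatinib, 479.6 and 408 CPM with UO126, 399 and 408 CPM with DMSO and 548 and 526 CPM with the empty vector. It fell with c-Fos (log2 -0.41 ± 0.077, adjusted p = 0.000767), and it was not called with either inhibitor against DMSO. For Col8a1 a rise with UO126 passed the threshold without UO126 replicate 2 (0.00877), and a difference between the inhibitors without UO126 replicate 2 (0.044). Col6a5 was called in none of the 4 comparisons.

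The type IV chains Col4a1 and Col4a2, which form the common basement membrane network, did not pass the threshold with c-Fos or with either inhibitor against DMSO. Col4a1 measured 802 and 787 CPM with afatinib, 679.5 and 708 CPM with UO126, 767 and 736 CPM with DMSO and 750.3 and 734 CPM with the empty vector. Col4a2 measured 831 and 787 CPM with afatinib, 695 and 759.9 CPM with UO126, 828 and 780.3 CPM with DMSO and 782 and 795 CPM with the empty vector. With c-Fos the log2 fold changes were 0.02 ± 0.057 (adjusted p = 0.829) and 0.03 ± 0.063 (adjusted p = 0.758), so that 1 SE on either side spans zero for both. Their levels per kb kept a ratio of Col4a2 to Col4a1 between 1.03 and 1.11 in all 8 libraries. Col4a1 was called higher with afatinib than with UO126 (log2 0.19 ± 0.057, adjusted p = 0.0357). For Col4a1 that call ended without afatinib replicate 1 (0.153), afatinib replicate 2 (0.115), UO126 replicate 1 (0.0792), DMSO replicate 1 (0.0532), empty vector replicate 1 (0.0653) or empty vector replicate 2 (0.055), in a fit of the 4 libraries alone (0.118) and with the replicate block (0.0795). For Col4a2 the same difference (0.15 ± 0.063, adjusted p = 0.13) passed the threshold without UO126 replicate 2 (0.0275), as did a fall with UO126 against DMSO without UO126 replicate 2 (0.026). The genes lie head to head, and their promoter windows are shown because they overlap: capitals mark the 78 bases in both windows, read on opposite strands. The Col4a1 window is chr8:11312777-11313076 on the minus strand and the Col4a2 window chr8:11312555-11312854 on the plus strand, in GRCm38.p6 from RefSeq.

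Col4a1: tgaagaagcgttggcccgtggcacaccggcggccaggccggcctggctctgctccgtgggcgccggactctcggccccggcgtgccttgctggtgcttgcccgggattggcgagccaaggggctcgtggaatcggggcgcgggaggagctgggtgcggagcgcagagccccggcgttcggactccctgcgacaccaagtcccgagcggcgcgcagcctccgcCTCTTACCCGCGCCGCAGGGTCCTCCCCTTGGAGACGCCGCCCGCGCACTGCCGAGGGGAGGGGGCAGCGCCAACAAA

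Col4a2: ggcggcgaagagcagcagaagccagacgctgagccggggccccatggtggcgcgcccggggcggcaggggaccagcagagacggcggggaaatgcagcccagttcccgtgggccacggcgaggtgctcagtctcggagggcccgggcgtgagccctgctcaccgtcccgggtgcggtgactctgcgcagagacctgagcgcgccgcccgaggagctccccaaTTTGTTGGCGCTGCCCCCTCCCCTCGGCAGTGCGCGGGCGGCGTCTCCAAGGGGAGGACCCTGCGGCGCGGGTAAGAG

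The marked bases are shared by the windows, which also hold bases before each start, so not all of them need be transcribed from both genes. The annotated spans of Col4a1 and Col4a2 overlap too. Reads from bases in both spans cannot be assigned to a strand, since the library kit does not mark it. The same holds for Col4a3 and Col4a4, whose spans also overlap. Col4a5, the type IV chain that skin basement membrane holds with Col4a6, was higher with either inhibitor. It measured 268 and 282 CPM with afatinib, 312 and 302 CPM with UO126, 241 and 221 CPM with DMSO and 213 and 195 CPM with the empty vector. The log2 fold change against DMSO was 0.25 ± 0.068 (adjusted p = 0.00879) with afatinib and 0.41 ± 0.068 (adjusted p = 0.000615) with UO126, and with c-Fos against the empty vector it was 0.18 ± 0.068 (adjusted p = 0.0488). For Col4a5 the afatinib call ended without afatinib replicate 2 (0.0554) or DMSO replicate 2 (0.0826). The c-Fos call of Col4a5 ended without afatinib replicate 1 (0.0615), afatinib replicate 2 (0.0609), DMSO replicate 1 (0.23) or empty vector replicate 2 (0.334), under a DESeq2 Wald test (0.0545), with no scaling factor (0.124), with every detected gene kept (0.0503), with no robust estimation (0.0552), with the replicate block (0.0693) and with the stricter low-count filter (0.0653). Col4a3, a chain known from kidney and lung, fell with c-Fos to 18 and 13 counts with DMSO, against 65.5 and 46 with the empty vector (log2 -1.56 ± 0.27, adjusted p = 0.00049). Col4a4 and Col4a6 were called in none of the 4 comparisons.

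Col15a1 and Col18a1 are collagens that carry anti-angiogenic fragments at their ends, restin and endostatin. Col15a1 had 3.5 and 3.5 counts with afatinib, 4 and 3.5 with UO126, 17 and 18.5 with DMSO and 3 and 1.5 with the empty vector. Both DMSO libraries were above the other 6, among which both empty-vector libraries were the lowest. Col15a1 passed the filter only through the DMSO group and so had to be high there to be tested; its calls, higher with c-Fos and lower with either inhibitor, are given as a description with no p. Col18a1 was called lower with c-Fos (log2 -0.23 ± 0.061, adjusted p = 0.00826), with 426 and 407 CPM with DMSO and 484 and 493 CPM with the empty vector. For Col18a1 that call ended without DMSO replicate 2 (0.0926), empty vector replicate 1 (0.0626) or empty vector replicate 2 (0.0639), and a fall with afatinib against DMSO passed the threshold without UO126 replicate 2 (0.0373).

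The collagens of the epidermal anchor were lower with c-Fos, and lower again with afatinib. Col17a1, the hemidesmosome collagen, measured 2479 and 2488 CPM with afatinib, 2391 and 2657 CPM with UO126, 3047 and 2807 CPM with DMSO and 4719.6 and 4629.8 CPM with the empty vector. Every c-Fos library lay below both empty-vector libraries, and c-Fos with DMSO held 0.626 times the empty-vector level (log2 -0.68 ± 0.065, adjusted p = 2.27e-06). Against DMSO it fell by log2 -0.24 ± 0.065 (adjusted p = 0.00951) with afatinib and -0.21 ± 0.065 (adjusted p = 0.0243) with UO126. For Col17a1 the afatinib call ended without afatinib replicate 1 (0.081), afatinib replicate 2 (0.0798) or DMSO replicate 1 (0.107). The UO126 call of Col17a1 ended without afatinib replicate 1 (0.0519), afatinib replicate 2 (0.0524), UO126 replicate 1 (0.183), DMSO replicate 1 (0.203) or empty vector replicate 2 (0.0532), with no scaling factor (0.0577) and in a fit of the 4 libraries alone (0.0682). Col7a1, which makes anchoring fibrils, measured 838 and 819 CPM with afatinib, 941 and 1076 CPM with UO126, 1068 and 938 CPM with DMSO and 1197 and 1239 CPM with the empty vector. It was lower with c-Fos (-0.28 ± 0.076, adjusted p = 0.00895), with afatinib against DMSO (-0.28 ± 0.076, adjusted p = 0.00997) and with afatinib against UO126 (-0.28 ± 0.076, adjusted p = 0.0239), all as log2 fold changes, and with UO126 against DMSO it was 0.01 ± 0.076 (adjusted p = 0.95). For Col7a1 the c-Fos call ended without DMSO replicate 2 (0.135) or empty vector replicate 2 (0.0656). The afatinib calls of Col7a1 ended, against DMSO, without afatinib replicate 1 (0.0607), afatinib replicate 2 (0.1) or DMSO replicate 1 (0.139), and, against UO126, without afatinib replicate 1 (0.117), afatinib replicate 2 (0.17) or UO126 replicate 2 (0.0893) and in a fit of the 4 libraries alone (0.0568). Mir711 overlaps Col7a1 and held up to 134.5 counts.

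**Figure D3:**
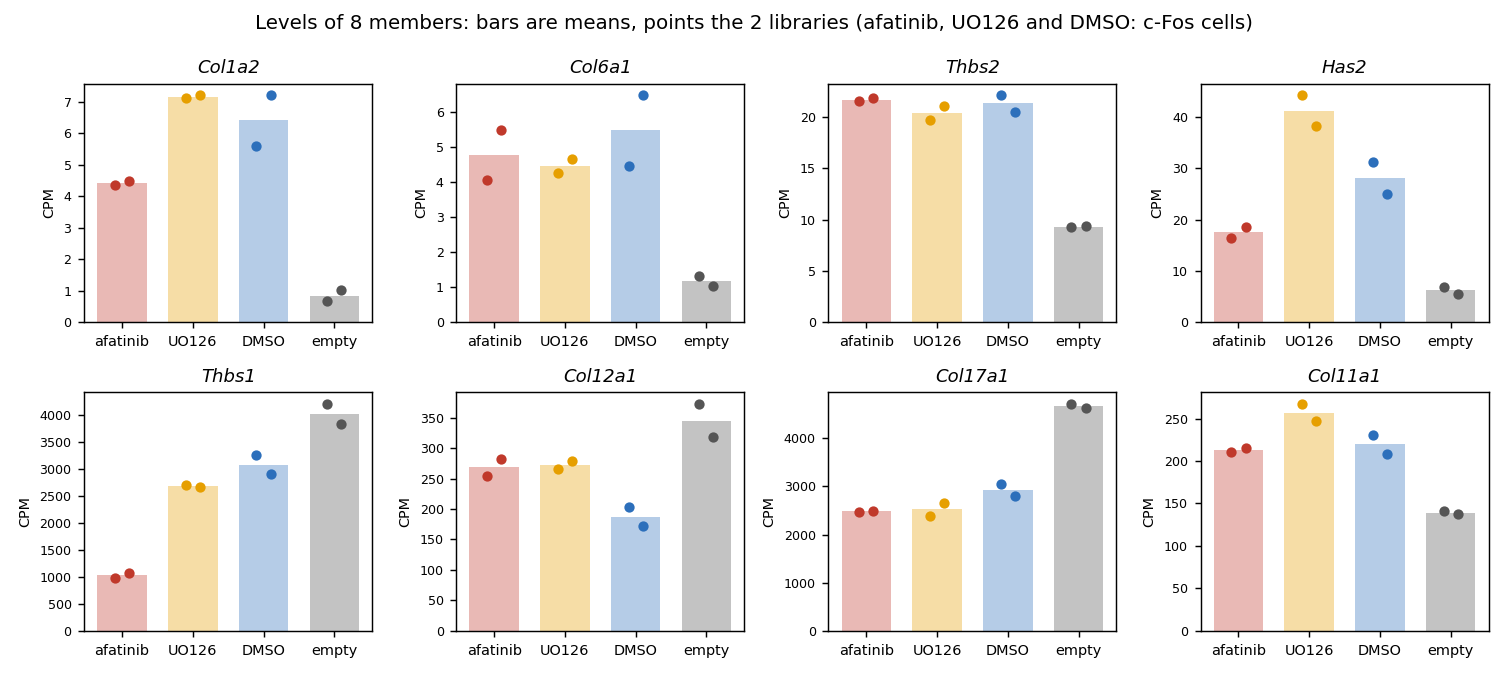
CPM in each library for Col1a2, Col6a1, Thbs2, Has2, Thbs1, Col12a1, Col17a1 and Col11a1, with bars for the means of 2 libraries from 0 and points for the libraries; afatinib, UO126 and DMSO are c-Fos cells. Col1a2, Col6a1, Thbs2, Has2 and Col11a1 are lowest with the empty vector, Col12a1 and Col17a1 highest there, and Thbs1 is lowest with afatinib.

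Of the chains of the epidermal laminin, Lamb3 rose with c-Fos while Lama3 fell, and Lama3 was higher with either inhibitor than with DMSO. Lamb3, the β3 chain, measured 1286 and 1229.8 CPM with afatinib, 1135 and 1249 CPM with UO126, 1292 and 1252 CPM with DMSO and 840.4 and 839 CPM with the empty vector. All 6 c-Fos libraries were above the empty-vector libraries (1.51-fold with DMSO, log2 0.60 ± 0.062, adjusted p = 4.52e-06), and it was not called with the inhibitors against DMSO (log2 -0.02 ± 0.062, adjusted p = 0.856 with afatinib, -0.09 ± 0.062, adjusted p = 0.279 with UO126). Lama3, the α3 chain, measured 613 and 680.1 CPM with afatinib, 656 and 676 CPM with UO126, 494 and 454 CPM with DMSO and 571 and 517 CPM with the empty vector. It was lowest with DMSO: the log2 fold change was -0.20 ± 0.072 (adjusted p = 0.0389) with c-Fos, 0.45 ± 0.072 (adjusted p = 0.000227) with afatinib and 0.49 ± 0.072 (adjusted p = 0.000241) with UO126. For Lama3 the c-Fos call ended without DMSO replicate 1 (0.0634), DMSO replicate 2 (0.289) or empty vector replicate 1 (0.432), under a DESeq2 Wald test (0.0673), with DESeq2 size factors (0.052) and with the replicate block (0.0642).

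Per kb, the ratio of Lama3 to Lamb3 was 0.349 and 0.404 with afatinib, 0.423 and 0.396 with UO126, 0.280 and 0.265 with DMSO and 0.497 and 0.451 with the empty vector, lowest with DMSO. These ratios set transcripts and not trimers side by side, and depend on the deposited lengths; they carry no test of their own.

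A second laminin of epidermis joins Lama5, Lamb1 and Lamc1, and its chains also parted. Lamb1, the β1 chain, fell with both inhibitors. It measured 114 and 117 CPM with afatinib, 101 and 111 CPM with UO126, 229.7 and 219.9 CPM with DMSO and 242 and 243 CPM with the empty vector. The 4 inhibitor libraries lay far below the other 4: afatinib held 0.514 times the DMSO level (log2 -0.96 ± 0.065, adjusted p = 1.17e-07) and UO126 0.473 times (log2 -1.08 ± 0.065, adjusted p = 1.44e-07), and the c-Fos difference was -0.11 ± 0.064 (adjusted p = 0.186). Afatinib and UO126 differed by 0.12 ± 0.065 (adjusted p = 0.256) on the log2 scale. Lamc1, the γ1 chain, measured 553 and 567 CPM with afatinib, 489 and 515 CPM with UO126, 469 and 424 CPM with DMSO and 327 and 313 CPM with the empty vector. It rose with c-Fos (log2 0.48 ± 0.065, adjusted p = 5.42e-05) and again with afatinib against DMSO (0.33 ± 0.064, adjusted p = 0.00111), and with UO126 it was 0.17 ± 0.064 (adjusted p = 0.0663), which passed the threshold without UO126 replicate 1 (0.0173) or DMSO replicate 1 (0.0403), with no scaling factor (0.0222) and with every detected gene kept (0.0351). Lama5, the α5 chain, measured 614 and 609 CPM with afatinib, 488 and 592 CPM with UO126, 607 and 519 CPM with DMSO and 746 and 726 CPM with the empty vector, with a fall with c-Fos (log2 -0.39 ± 0.092, adjusted p = 0.00613). For Lama5 that call ended without DMSO replicate 2 (0.0655) or empty vector replicate 1 (0.0596), and a rise with afatinib over UO126 passed the threshold without UO126 replicate 2 (0.00527) and with every detected gene kept (0.0345). Lamb2, the β chain that replaces Lamb1 in other laminins, measured 21.4 and 21.2 CPM with afatinib, 17.7 and 19.0 CPM with UO126, 11.5 and 11.9 CPM with DMSO and 27.5 and 28.1 CPM with the empty vector. It fell with c-Fos to 0.420 times the empty-vector level (log2 -1.25 ± 0.090, adjusted p = 1.31e-07) and was higher with afatinib (0.87 ± 0.093, adjusted p = 7.2e-06) and UO126 (0.65 ± 0.094, adjusted p = 0.000214) than with DMSO.

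Lamb1 over Lamc1 per kb was 0.273 and 0.272 with afatinib, 0.274 and 0.286 with UO126, 0.647 and 0.686 with DMSO and 0.978 and 1.03 with the empty vector. The 4 groups fell into 3 levels, with both inhibitors at the bottom and the empty vector near parity. Lama5 over Lamc1 was 0.745 and 0.721 with afatinib, 0.671 and 0.772 with UO126, 0.868 and 0.823 with DMSO and 1.53 and 1.56 with the empty vector. Lamc3, a γ chain, had 8.5 and 5.5 counts with afatinib, 14 and 10 with UO126, 5 and 8 with DMSO and 3 and 6 with the empty vector, and was not tested. Lama1, Lama2 and Lama4, the α chains of other tissues, held at most 1, 3.5 and 1.5 counts.

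**Figure D4:**
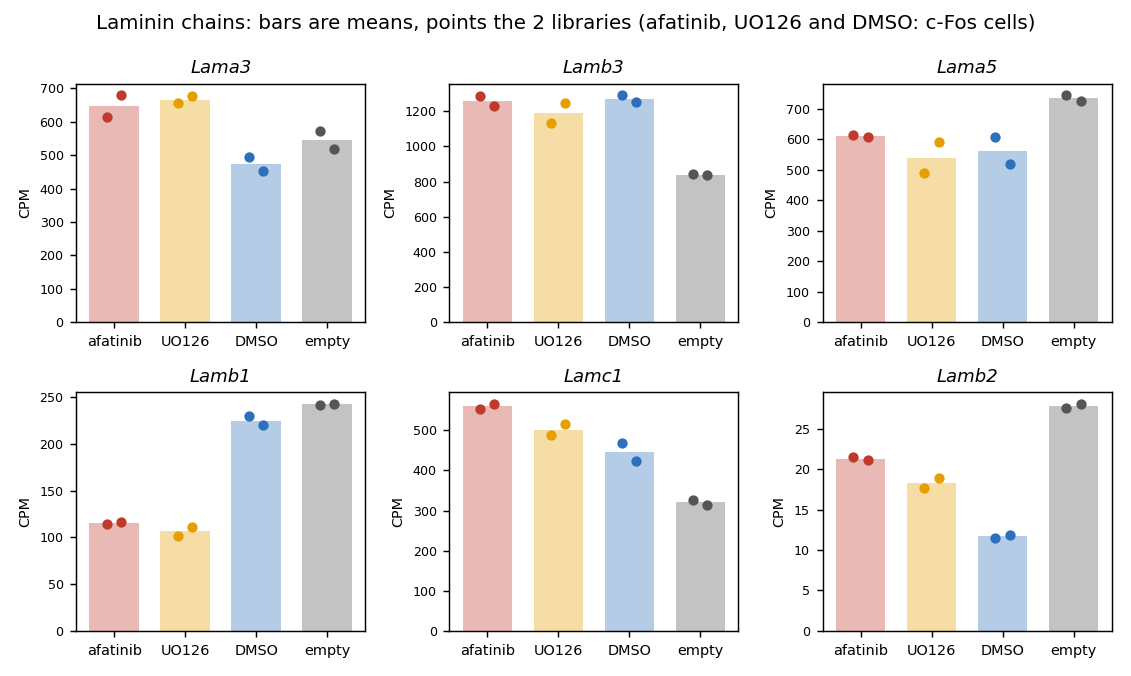
CPM in each library for the laminin chains named above, with bars for means of 2 libraries from 0 and points for the libraries; afatinib, UO126 and DMSO are c-Fos cells. Lamb1 is low with both inhibitors, Lamb2 is highest with the empty vector and lowest with DMSO, and Lamb3 and Lamc1 are lowest with the empty vector.

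**Figure D5:**
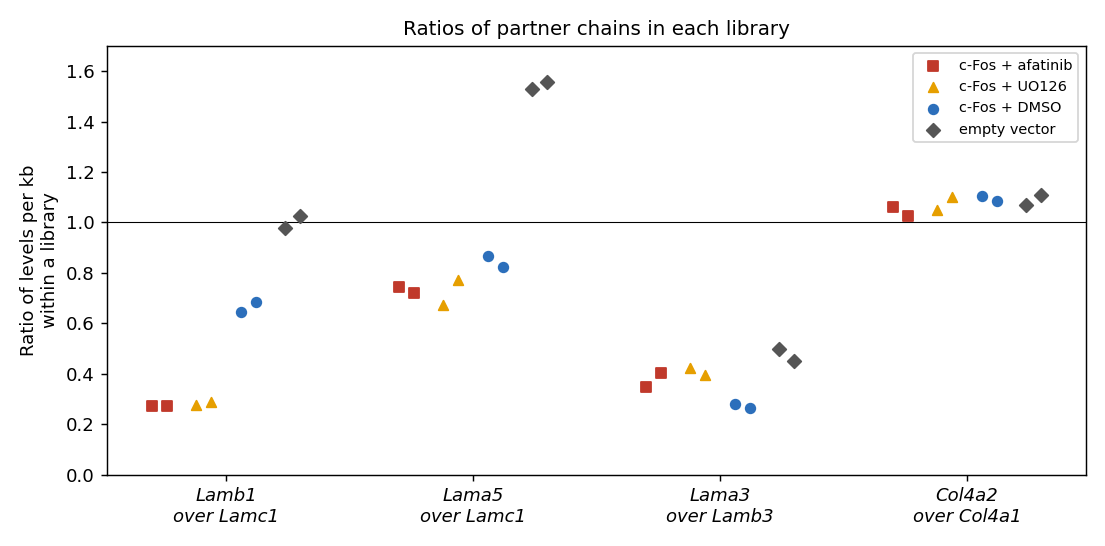
Ratio of levels per kb of deposited length between partner chains in each library, on a linear axis from 0, with a line at 1. Lamb1 over Lamc1 is 0.272 to 0.286 with the inhibitors, and Col4a2 over Col4a1 lies between 1.03 and 1.11 in all libraries.

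Nidogens, which bridge laminin and type IV collagen, held few counts, as given above. Agrin (Agrn), a heparan sulfate proteoglycan of basement membranes, was lower with c-Fos, with 875 and 789.8 CPM with DMSO and 1089 and 1077 CPM with the empty vector (log2 -0.38 ± 0.068, adjusted p = 0.000565), and was not called with either inhibitor (0.04 ± 0.068, adjusted p = 0.708 with afatinib, -0.02 ± 0.068, adjusted p = 0.873 with UO126). Perlecan (Hspg2), the larger such proteoglycan, was not called, with log2 0.23 ± 0.095 (adjusted p = 0.0772) with c-Fos and -0.23 ± 0.095 (adjusted p = 0.081) with afatinib. For Hspg2 the c-Fos difference passed the threshold without UO126 replicate 1 (0.0276), UO126 replicate 2 (0.0197) or DMSO replicate 2 (0.0102), under a DESeq2 Wald test (0.0396) and with every detected gene kept (0.00148), and the afatinib difference without UO126 replicate 1 (0.049), UO126 replicate 2 (0.038) or DMSO replicate 2 (0.0157), with every detected gene kept (0.00167) and in a fit of the 4 libraries alone (0.0113).

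The adhesive and matricellular proteins moved in both directions with c-Fos. Fn1, fibronectin, measured 2566 and 2633 CPM with afatinib, 2592 and 2789.8 CPM with UO126, 2673 and 2261 CPM with DMSO and 1932 and 1776 CPM with the empty vector. All c-Fos libraries were above the empty-vector libraries (log2 0.41 ± 0.078, adjusted p = 0.000903 with DMSO), and against DMSO it was 0.08 ± 0.078 (adjusted p = 0.464) with afatinib and 0.13 ± 0.078 (adjusted p = 0.253) with UO126, the second past the threshold without DMSO replicate 1 (0.0435). Sparc measured 895 and 873 CPM with afatinib, 890.0 and 929.7 CPM with UO126, 865 and 856 CPM with DMSO and 669.7 and 676 CPM with the empty vector. It rose with c-Fos (log2 0.35 ± 0.056, adjusted p = 0.000199), and was not called between any c-Fos groups. Thbs2, a thrombospondin that binds matrix proteases, measured 21.5 and 21.9 CPM with afatinib, 19.7 and 21.1 CPM with UO126, 22.2 and 20.5 CPM with DMSO and 9.28 and 9.35 CPM with the empty vector, a 2.30-fold rise with c-Fos (log2 1.20 ± 0.097, adjusted p = 3.98e-07). Each inhibitor group overlapped DMSO, with differences of 0.02 ± 0.089 (adjusted p = 0.866) with afatinib and -0.07 ± 0.089 (adjusted p = 0.596) with UO126. Tnc, tenascin C, measured 753 and 796 CPM with afatinib, 844 and 929 CPM with UO126, 1079 and 983 CPM with DMSO and 1404 and 1291 CPM with the empty vector. It fell with c-Fos (log2 -0.39 ± 0.071, adjusted p = 0.000688) and further with afatinib against DMSO (-0.41 ± 0.071, adjusted p = 0.000412), and with UO126 it was called lower (-0.22 ± 0.071, adjusted p = 0.0346). For Tnc the UO126 call ended without afatinib replicate 1 (0.0618), afatinib replicate 2 (0.0623), UO126 replicate 1 (0.179), DMSO replicate 1 (0.269), DMSO replicate 2 (0.0537), empty vector replicate 1 (0.051) or empty vector replicate 2 (0.0561), with no scaling factor (0.0724), in a fit of the 4 libraries alone (0.0661) and with the replicate block (0.0622), and a difference between the inhibitors passed the threshold without UO126 replicate 1 (0.0144) and with every detected gene kept (0.0124).

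Thbs1, a thrombospondin known to activate latent TGF-beta, set the inhibitors apart. It measured 989 and 1071 CPM with afatinib, 2712 and 2674 CPM with UO126, 3253 and 2907 CPM with DMSO and 4211 and 3839 CPM with the empty vector. Both afatinib libraries were far below the other 6, at 0.334 times the DMSO level (log2 -1.58 ± 0.072, adjusted p = 4.22e-09) and 0.382 times the UO126 level (log2 -1.39 ± 0.072, adjusted p = 1.53e-07). With UO126 against DMSO it was -0.19 ± 0.070 (adjusted p = 0.054) and not called, though it passed the threshold without DMSO replicate 2 (0.0483) and with every detected gene kept (0.00212). With c-Fos it fell (log2 -0.39 ± 0.070, adjusted p = 0.000638). Thbs3 was called in none of the 4 comparisons.

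Has2, a hyaluronan synthase of the cell membrane, also set the inhibitors apart, in opposite directions from DMSO. It measured 16.5 and 18.5 CPM with afatinib, 44.3 and 38.2 CPM with UO126, 31.2 and 25.0 CPM with DMSO and 6.84 and 5.53 CPM with the empty vector. The 4 groups did not overlap, in the order UO126, DMSO, afatinib and empty vector from high to low. It rose 4.53-fold with c-Fos (log2 2.18 ± 0.15, adjusted p = 1.45e-07), fell with afatinib against DMSO (-0.69 ± 0.13, adjusted p = 0.00094), rose with UO126 against DMSO (0.55 ± 0.12, adjusted p = 0.00439) and was lower with afatinib than with UO126 (-1.24 ± 0.12, adjusted p = 5.05e-05). For Has2 the UO126 call ended without DMSO replicate 2 (0.0548). Its antisense neighbour Has2os held up to 47.5 counts, and reads of the pair cannot be told apart by strand. Dcn, decorin, a small proteoglycan of collagen fibrils, fell to 18.5 and 8.5 counts with DMSO, against 58 and 53.5 with the empty vector (log2 -1.82 ± 0.34, adjusted p = 0.000697; -2.46 without DMSO replicate 1). Has3 and Vcan, versican, were called in none of the 4 comparisons.

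Lysyl oxidases cross-link collagen and elastin. Loxl3 measured 16.8 and 14.3 CPM with afatinib, 17.7 and 19.0 CPM with UO126, 23.8 and 25.3 CPM with DMSO and 23.7 and 23.7 CPM with the empty vector. It fell with afatinib (log2 -0.66 ± 0.099, adjusted p = 0.000142) and with UO126 (-0.42 ± 0.097, adjusted p = 0.0057) against DMSO, and with c-Fos it was 0.05 ± 0.095 (adjusted p = 0.697). For Loxl3 the UO126 call ended without DMSO replicate 2 (0.0697). Htra2 overlaps Loxl3 and held up to 1581 counts, so some reads could belong to either gene. Loxl4 rose with c-Fos (log2 0.35 ± 0.067, adjusted p = 0.000919), and again with afatinib (0.25 ± 0.066, adjusted p = 0.00871) and UO126 (0.32 ± 0.066, adjusted p = 0.00317) against DMSO. For Loxl4 the afatinib call ended without afatinib replicate 1 (0.0641) or DMSO replicate 2 (0.0877), and the UO126 call without DMSO replicate 2 (0.0535). Lox itself had 6.5 and 7.5 counts with afatinib, 16 and 10.5 with UO126, 8 and 5 with DMSO and 9 and 6.5 with the empty vector, too few for the test.

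Set against the empty vector, c-Fos cells with afatinib had 17 members higher and 16 lower, where 21.7% of all genes were higher and 23.4% lower. With UO126 the counts were 15 and 15, where 18.3% of all genes were higher and 19.4% lower. These comparisons share the empty-vector libraries with each other and with the c-Fos comparison, and differ in the vehicle or inhibitor. Col1a2 was 5.21-fold higher than with the empty vector under afatinib (log2 2.38 ± 0.23, adjusted p = 2.19e-06) and 8.41-fold under UO126 (3.07 ± 0.22, adjusted p = 1.03e-07). Has2 was 2.82-fold higher under afatinib (1.49 ± 0.15, adjusted p = 5.16e-06) and 6.64-fold under UO126 (2.73 ± 0.14, adjusted p = 1.34e-08). Both genes thus kept a level above the empty vector after 6 h of either inhibitor. Lamb2 stayed below the empty vector with afatinib (-0.38 ± 0.083, adjusted p = 0.0019) and with UO126 (-0.60 ± 0.084, adjusted p = 7.37e-05), as log2 fold changes. Lama3 was above it, by 0.25 ± 0.072 (adjusted p = 0.0115) with afatinib and 0.29 ± 0.072 (adjusted p = 0.00562) with UO126. For Lama3 the afatinib call ended without afatinib replicate 2 (0.0961) or empty vector replicate 2 (0.102), and the UO126 call without empty vector replicate 2 (0.0719). Lamb1 was below it with afatinib (-1.07 ± 0.065, adjusted p = 2.03e-08) and UO126 (-1.19 ± 0.065, adjusted p = 8.79e-09), whereas the c-Fos comparison with DMSO did not call it.

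Genes that serve the matrix were counted in 5 lists. Their counts stand beside the shares of all genes called, higher and lower: 21.5% and 20.7% with c-Fos, 21.2% and 21.5% with afatinib, 13.9% and 14.7% with UO126, and 7.14% and 7.14% between the inhibitors. Of 20 tested genes of collagen modification and secretion (25 in the table), 12 were higher and 3 lower with c-Fos, with a median log2 fold change of 0.24, against -0.01 over all genes; that is 60% and 15% of the list. Pcolce2, an enhancer of procollagen cleavage, averaged 121 ± 0.380 CPM with c-Fos and DMSO and 24.9 ± 0.286 CPM with the empty vector (SD, n = 2 each; log2 2.28 ± 0.067, adjusted p = 2.77e-11). P3h2, a prolyl 3-hydroxylase that modifies type IV collagen, averaged 64.3 ± 3.02 CPM with c-Fos and DMSO and 21.1 ± 2.24 CPM with the empty vector (log2 1.61 ± 0.084, adjusted p = 5.3e-09). The same list counted 2 higher and 4 lower with afatinib and 0 higher and 4 lower with UO126, against DMSO, and 3 higher and 0 lower with afatinib against UO126. The shares were 10% and 20% with afatinib and 0% and 20% with UO126, with fewer higher calls than over all genes in both and lower calls near or above them by 1 gene. Without DMSO replicate 2 or empty-vector replicate 1 the list counted 7 higher and 1 lower with c-Fos, and without DMSO replicate 1 it counted 1 lower. The afatinib counts were 1 higher without afatinib replicate 1 or either DMSO replicate and 2 lower without afatinib replicate 2 or DMSO replicate 2, and UO126 had 1 lower without DMSO replicate 2. Between the inhibitors 1 was higher without either afatinib replicate, and 1 was lower without UO126 replicate 1. Of 10 tested genes of elastic fibres, fibulins and latent TGF-beta carriers (19 in the table), 2 were higher and 4 lower with c-Fos (median -0.64), and 1 was higher and 1 lower with each inhibitor against DMSO. These counts are 20% and 40% with c-Fos and 10% and 10% with each inhibitor, the inhibitor shares being below those of all genes. The lower call with afatinib ended without any afatinib, DMSO or empty-vector library and became 2 calls without UO126 replicate 2. The higher call with UO126 ended without UO126 replicate 2 or any DMSO or empty-vector library and became 3 without UO126 replicate 1, and the lower call ended without any library but UO126 replicate 2, where there were 2. The microfibril gene Fbn2 fell, at 26.8 ± 2.02 CPM with c-Fos and 131 ± 8.25 CPM with the empty vector (log2 -2.29 ± 0.082, adjusted p = 1.76e-10), and the latent TGF-beta carrier Ltbp1 rose, at 524 ± 26.1 CPM with c-Fos and 212 ± 1.91 CPM with the empty vector (log2 1.31 ± 0.062, adjusted p = 2.35e-09). Tgfbi, a TGF-beta-induced adhesion protein, was higher with c-Fos (log2 1.28 ± 0.064, adjusted p = 3.59e-09) and higher again with afatinib against DMSO (0.39 ± 0.062, adjusted p = 0.000191).

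Of 13 tested other matricellular and adhesive proteins (27 in the table), 4 were higher and 3 lower with c-Fos (median 0.24), 2 and 2 with afatinib and 1 and 2 with UO126 against DMSO. The inhibitor counts, 15.4% and 15.4% with afatinib and 7.69% and 15.4% with UO126, lie near or below the shares of all genes, and the counts with c-Fos exceed them by about 1 gene or less. With afatinib 1 was higher without afatinib replicate 2 or DMSO replicate 2 and 1 lower without afatinib replicate 1 or DMSO replicate 1, and with UO126 1 was lower without UO126 replicate 1 or DMSO replicate 1 and 4 without UO126 replicate 2. Spp1, osteopontin, rose with c-Fos (log2 0.95 ± 0.11, adjusted p = 9.18e-06) and fell with afatinib (-0.82 ± 0.10, adjusted p = 3.33e-05) and UO126 (-1.02 ± 0.11, adjusted p = 1.48e-05) against DMSO. The basement membrane gene Fras1 fell with c-Fos (-1.02 ± 0.099, adjusted p = 2.76e-06). Of 20 tested other proteoglycan and hyaluronan genes (28 in the table), 5 were higher and 9 lower with c-Fos (median -0.21), 6 and 3 with afatinib and 3 and 6 with UO126. The shares were 25% and 45% with c-Fos, 30% and 15% with afatinib and 15% and 30% with UO126. With c-Fos 3 were higher without DMSO replicate 1 or empty-vector replicate 2, and with UO126 3 were lower without DMSO replicate 2. The syndecan Sdc3 rose with c-Fos (log2 1.95 ± 0.15, adjusted p = 2.06e-07), with afatinib (0.82 ± 0.11, adjusted p = 6.66e-05) and with UO126 (0.52 ± 0.11, adjusted p = 0.00419), whereas Sdc4 fell with afatinib (-0.61 ± 0.058, adjusted p = 2.29e-06) and UO126 (-0.63 ± 0.057, adjusted p = 5.1e-06). Cd44, the hyaluronan receptor, averaged 478 ± 46.8 CPM with afatinib, 522 ± 28.2 CPM with UO126, 729.9 ± 16.7 CPM with DMSO and 339 ± 12.7 CPM with the empty vector. It rose with c-Fos (log2 1.10 ± 0.073, adjusted p = 5.45e-08) and fell with afatinib (-0.61 ± 0.072, adjusted p = 1.66e-05) and UO126 (-0.48 ± 0.072, adjusted p = 0.00027) against DMSO. Of 9 tested matrix receptors other than integrins (12 in the table, Cd44 among them), 3 were higher and 4 lower with c-Fos (median -0.04), 4 and 2 with afatinib and 2 and 2 with UO126. With 9 genes the shares were 33.3% and 44.4% with c-Fos, 44.4% and 22.2% with afatinib and 22.2% and 22.2% with UO126, and those with UO126 are within 1 gene of the shares of all genes. In that list 1 was lower with afatinib without afatinib replicate 2 or DMSO replicate 2, and 1 with UO126 without UO126 replicate 1 or DMSO replicate 2. The collagen receptor kinase Ddr1 rose with afatinib (log2 0.53 ± 0.073, adjusted p = 5.87e-05) and UO126 (0.47 ± 0.073, adjusted p = 0.000336) against DMSO, and with c-Fos it was -0.04 ± 0.073 (adjusted p = 0.72). The endocytic receptor Lrp1 fell with c-Fos (-0.82 ± 0.11, adjusted p = 0.000172) and rose with afatinib (1.08 ± 0.11, adjusted p = 2.41e-05) and UO126 (0.49 ± 0.11, adjusted p = 0.00728).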

How the data were processed

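RNA-seq was measured in 8 libraries of ASZ001 cells, made with an unstranded TruSeq kit per the labels' protocols. The deposited values are estimated counts per gene: 47.9% to 49.5% of values above 0 are whole numbers plus 0.5, so they were rounded to whole numbers for the tests. The series' design text names TopHat for alignment and HOMER for counting, and the submitters' processing notes name mm9 and DESeq2, with no version. The authors' length column was used only to set levels of different genes side by side, and the sources used here do not give its isoform. Totals were 17901974 to 23126048 counts, and their number limits precision for low genes; counting intervals cover counting error only. Left out were 26 entries with date-like symbols (0.218% to 0.246% of counts). Rn45s, a ribosomal RNA precursor, took 1.62% to 4.08%.

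Groups came from the sample titles and treatments. All 8 libraries entered 1 fit with 1 coefficient per group in edgeR 4.0.16 (R 4.3.3, limma 3.58.1): TMM scaling (factors 0.972 to 1.02), filterByExpr (min.count 10, min.total.count 15), robust quasi-likelihood fit, 2-sided test, Benjamini-Hochberg adjustment over the 12879 genes tested, called under 0.05. The SE of a log2 fold change was derived from its F statistic. The steps were tested on simulated data. Replicates of a group differed by more than sampling noise, and each library was counted as 1 sample. Chi-square over degrees of freedom was 9.17 with afatinib, 25.1 with UO126, 8.60 with DMSO and 4.85 with the empty vector. The UO126 libraries were thus the least alike. These values do not show whether the libraries came from separate cultures.

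Members and gene lists were chosen with earlier results of these data known. Every member may be named; values in each library are given for the called members with at least 5 CPM among the 6 largest rises and falls without overlap in each main comparison, and for a fixed set of laminin, type IV, anchoring and matricellular genes. Of each pathway list, up to 3 called genes per comparison with at least 5 CPM could be named. Alternatives were DESeq2 1.42.0 (Wald test or size factors), no or a stricter low-count filter, a fit to the 4 compared libraries, a replicate block, each library left out, an adjusted p under 0.01, a 2-fold minimum, no robust estimation, Rn45s removed and, chosen after seeing the data, no scaling factor. The values of 1 member and of 1 marker gene are not reported here.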

Additional observations from a re-analysis of the deposited data

How the results depend on the processing

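No log2 fold change of a tested member that was called changed sign under any alternative tried, and no scaling moved the median of all genes by more than 0.1. Between afatinib and UO126, 1 member was higher; there were 3 with every detected gene kept and 0 in a fit of the 4 libraries alone, the replicate block, an adjusted p under 0.01 or a 2-fold minimum. Members lower there numbered 3 in a fit of the 4 libraries alone, and 2 at 0.01 or at 2-fold. Members lower with UO126 against DMSO numbered 3 in a fit of the 4 libraries alone, no scaling factor or 0.01, and 2 at 2-fold, where the members higher numbered 0. The 2-fold minimum left 8 of the 46 tested members higher and 4 lower with c-Fos, and 1 and 2 with afatinib against DMSO. Against the empty vector it left 8 and 5 with afatinib and 7 and 3 with UO126. Col15a1, tested only through its level with DMSO, was 1 of the 8 higher with c-Fos. It was also 1 of the 2 lower with afatinib and 1 of the 2 lower with UO126 against DMSO. Over all 12879 genes tested the 2-fold minimum left 494 higher and 512 lower with c-Fos. Against DMSO it left 346 and 279 with afatinib and 202 and 146 with UO126. Between afatinib and UO126 it left 26 and 50. Against the empty vector it left 613 and 454 with afatinib and 533 and 376 with UO126. At 0.01 all genes numbered 1001 higher and 1144 lower with UO126 against DMSO, 378 and 408 between the inhibitors, and 1593 lower with UO126 against the empty vector. Between the inhibitors all genes numbered 481 higher and 505 lower in a fit of the 4 libraries alone, and 609 lower with the DESeq2 Wald test. Leaving out 1 library at a time gave 5 to 9 members higher with afatinib, 5 to 11 higher and 3 to 6 lower with UO126 against DMSO, and 0 to 3 higher and 2 to 5 lower between the inhibitors. All genes then ranged over 1661 to 3085 lower with c-Fos, 1692 to 3205 lower with afatinib, 913 to 2051 higher and 968 to 2063 lower with UO126, 391 to 1316 higher and 307 to 1102 lower between the inhibitors, and, against the empty vector, 1953 to 3232 lower with afatinib and 1476 to 2452 lower with UO126. Same-numbered libraries did not deviate together (correlations of -0.210 to 0.120), so the numbers are not taken as pairs; with the replicate block the members numbered 14 higher and 13 lower with c-Fos, 8 and 9 with afatinib, 9 and 4 with UO126, and 0 and 5 between the inhibitors. A minimum of 1 count in 1 library would have given 70 genes in place of 48. Depth limits the members with few counts, among them Col6a5, Col15a1, Lox, Col1a1 and Col6a3.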
